A study of Canis lupus familiaris with 12 samples.

Results

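ASNS, MTHFD2, ALDH18A1 and PYCR1 encode enzymes that make amino acids or carry one-carbon units, and their mRNA was followed in 2 cell lines of canine hemangiosarcoma, a tumour of blood vessel endothelium, in the presence or absence of glucose. Without glucose, ASNS and MTHFD2 rose 1.88-fold and 1.89-fold in HU-HSA-3 and PYCR1 rose 1.43-fold, whereas in HU-HSA-2 ASNS fell to 0.625 of its level and ALDH18A1 rose 1.19-fold. The 4 genes were chosen as the asparagine, one-carbon and proline synthesis enzymes in the study's list of RT-qPCR primers, which pairs their symbols with Ensembl identifiers. They are 4 of the 30951 genes in the deposited tables, namely ASNS (ENSCAFG00000002222), MTHFD2 (ENSCAFG00000008716), ALDH18A1 (ENSCAFG00000008339) and PYCR1 (ENSCAFG00000005906).

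Asparagine synthetase (ASNS) moves an amide group from glutamine onto aspartate and so makes asparagine. MTHFD2 is a mitochondrial enzyme of the folate cycle, which carries one-carbon units for nucleotide synthesis and is abundant in embryonic and tumour cells. ALDH18A1 encodes pyrroline-5-carboxylate synthase, which starts proline synthesis from glutamate, and PYCR1 encodes the mitochondrial reductase that completes it. All of these genes are known targets of ATF4, the transcription factor of the integrated stress response, which responds to amino acid shortage and to stress of the endoplasmic reticulum.

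Each line, HU-HSA-2 or HU-HSA-3, had been derived by the study from the splenic tumour of a different dog, so a difference between the lines cannot be told apart from a difference between the dogs. Cells of each line were kept for 48 h in DMEM with 10% fetal bovine serum and either 25 mM or 0 mM glucose, on gelatin-coated dishes, and the labels give no transgene, deletion or other agent for any group. Each of the 4 groups holds 3 libraries of polyA RNA, 12 in all. The study's methods state that each culture condition was run in triplicate before RNA extraction, so the 3 libraries of a group were taken as 3 cultures of 1 line, and a p-value measures the spread between such cultures. Whether they were set up on separate days is not given in the sources used here.

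Library totals of the expected counts, which RSEM estimates per gene, ran from 10406166 to 13405159. The 4 enzymes had 756 to 3939 counts per library, for which counting alone gives a coefficient of variation between 3.64% and 1.59%. Of the endothelial markers, PECAM1 was at 330 to 1135 TPM (transcripts per library total, scaled for gene length) and KDR at 29.1 to 76.7 TPM, whereas VWF was at most at 0.660 TPM in every library. In the 0 mM group of HU-HSA-3, replicate 1 stood apart. Leaving it out moved the number of genes past the threshold in that line from 626 to 2027, and the tests of glucose loss in HU-HSA-3 are given below with and without it. Tests used the quasi-likelihood method of edgeR, adjusted by Benjamini-Hochberg over all genes tested, and a gene passed at an adjusted p-value under 0.05.

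**Figure D1:**
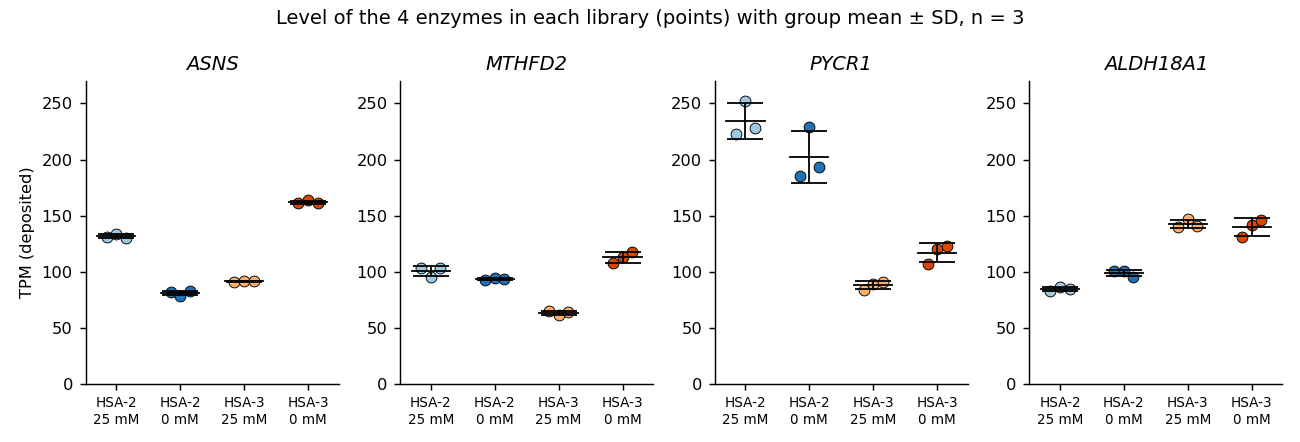
TPM on a linear axis for each enzyme in either line (HSA-2 for HU-HSA-2, HSA-3 for HU-HSA-3) at 25 mM and 0 mM glucose; points are libraries, and the horizontal lines and bars are the group mean and SD (n = 3). ASNS lay highest in HU-HSA-3 at 0 mM (162 TPM) and lowest in HU-HSA-2 at 0 mM (80.8 TPM), and PYCR1 was at 185 TPM or more in each HU-HSA-2 library and at 123 TPM or less in each HU-HSA-3 library.

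Levels are given first in TPM, which can be compared between genes. In each group the mean TPM of an enzyme exceeded that of 83.3% to 96.2% of all genes with a value above 0 there. In bulk RNA, fewer cells that express a gene and less of its RNA per cell cannot be told apart.

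ASNS changed in opposite directions in the 2 lines. In HU-HSA-2 its level was 131, 134 and 129.8 TPM in the 3 libraries at 25 mM glucose and 81.6, 78.4 and 82.5 TPM in those at 0 mM. In HU-HSA-3 it was 90.5, 91.6 and 91.7 TPM at 25 mM and 161, 163 and 161 TPM at 0 mM. In HU-HSA-2 all libraries without glucose were lower than those with glucose, and in the other line all were higher, with no overlap between the groups in either line. At 25 and 0 mM the group means were 132 ± 2.01 and 80.8 ± 2.13 TPM for HU-HSA-2, against 91.3 ± 0.691 and 162 ± 1.39 TPM for HU-HSA-3 (SD, n = 3 each). Ordered by level, HU-HSA-3 without glucose was highest, followed by HU-HSA-2 with glucose, HU-HSA-3 with glucose and HU-HSA-2 without glucose, and no neighbours in that order overlapped.

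For MTHFD2, the change was seen in HU-HSA-3. Its level there was 64.5, 61.5 and 63.9 TPM at 25 mM glucose and 108, 113 and 117 TPM at 0 mM, so the lowest library without glucose lay well above the highest with glucose. In HU-HSA-2 it was 103, 95.6 and 103 TPM at 25 mM and 92.5, 94.6 and 93.2 TPM at 0 mM. These 2 groups did not overlap in TPM, but they did as CPM, the counts per library total normalised by TMM, a scaling that aligns most genes between libraries, where they spanned 101 to 113 and 100.1 to 107 CPM. The means at 25 and 0 mM were 101 ± 4.39 and 93.4 ± 1.11 TPM for HU-HSA-2, against 63.3 ± 1.60 and 113 ± 4.91 TPM for HU-HSA-3 (SD, n = 3 each). MTHFD2 was thus lowest of the 4 groups in HU-HSA-3 with glucose and highest in HU-HSA-3 without it.

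ALDH18A1 differed more between the lines than with glucose. In HU-HSA-2 its level was 82.7, 86.6 and 84.1 TPM at 25 mM glucose and 100.1, 100.5 and 95.4 TPM at 0 mM, with every library without glucose above every one with glucose. In HU-HSA-3 it was 139, 147 and 141 TPM at 25 mM and 131, 142 and 146 TPM at 0 mM, and the groups overlapped. In CPM, the 0 mM libraries of HU-HSA-3 (333 to 335 CPM) lay just above the 25 mM libraries (316 to 333 CPM), so the order of these 2 groups depended on the scale. Its means at 25 and 0 mM were 84.4 ± 1.98 and 98.7 ± 2.83 TPM for HU-HSA-2, against 143 ± 3.96 and 139.6 ± 8.14 TPM for HU-HSA-3 (SD, n = 3 each).

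PYCR1, which acts after ALDH18A1 in the same pathway, had the opposite order of lines. In HU-HSA-2 its level was 223, 252 and 228 TPM at 25 mM glucose and 185, 229 and 193 TPM at 0 mM, and the groups overlapped through replicate 2 at 0 mM. In HU-HSA-3 it was 83.6, 89.3 and 90.9 TPM at 25 mM and 107, 120.4 and 123 TPM at 0 mM, with no overlap. Every library of HU-HSA-2 was above every library of HU-HSA-3. Mean levels at 25 and 0 mM were 234 ± 15.7 and 202 ± 23.5 TPM for HU-HSA-2, against 87.9 ± 3.85 and 117 ± 8.40 TPM for HU-HSA-3 (SD, n = 3 each).

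The order of the enzymes by TPM differed among the 4 groups. PYCR1 was the most abundant of the 4 in HU-HSA-2 with and without glucose, and no neighbours in the order overlapped there. ALDH18A1 led in HU-HSA-3 with glucose, where ASNS and PYCR1 overlapped, and ASNS led in HU-HSA-3 without glucose, where PYCR1 and MTHFD2 overlapped through replicate 1, the library that stood apart. Without that library the means of the latter group were 162 TPM for ASNS, 144 for ALDH18A1, 122 for PYCR1 and 115 for MTHFD2. In HU-HSA-2, ASNS went from the next place after PYCR1 with glucose to the lowest place without glucose. PYCR1 made up 42.5% ± 1.66 and 42.5% ± 2.76 of the summed TPM of the 4 enzymes in HU-HSA-2 at 25 and 0 mM, but 22.8% ± 0.678 and 22.0% ± 0.696 in HU-HSA-3 (SD, n = 3 each). Without glucose the share of ASNS in that sum went from 23.9% ± 0.404 to 17.0% ± 1.25 for HU-HSA-2, but from 23.7% ± 0.204 to 30.5% ± 1.17 for HU-HSA-3. The sum itself, at 25 and 0 mM, was 551 ± 15.0 and 475 ± 23.8 TPM for HU-HSA-2, against 385 ± 6.09 and 531 ± 22.0 TPM for HU-HSA-3.

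The response to glucose loss was tested within each line. In HU-HSA-2, 1 of the 4 enzymes passed as higher and 1 as lower, where 7.45% and 5.70% of the 12035 tested genes did so (13.2% in either direction). ASNS fell by 0.68 on the log2 scale (SE 0.05, 95% interval from -0.80 to -0.56, adjusted p = 2.53e-06, edgeR), from 186 ± 1.91 to 117 ± 6.57 CPM. Its change ranked 526th by size among all genes tested. ALDH18A1 rose by 0.25 (SE 0.05, interval 0.15 to 0.35, adjusted p = 0.00327, edgeR), from 166 ± 1.19 to 198 ± 1.09 CPM. MTHFD2 did not pass, with a log2 fold change of -0.08 (SE 0.06, interval -0.21 to 0.05, adjusted p = 0.399, edgeR). PYCR1 did not pass either, at -0.18 (SE 0.07, interval -0.33 to -0.03, adjusted p = 0.110, edgeR). This last call rested on 1 library, since without replicate 2 at 0 mM, the highest of its group, PYCR1 was at -0.26 with an adjusted p of 0.00509, and it also passed at -0.18 (adjusted p = 0.0263) when genes with low counts were not filtered. The median log2 fold change of the 4 enzymes was -0.13, against -0.01 for all genes tested.

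In HU-HSA-3, 3 of the 4 enzymes passed as higher and none as lower, where 3.61% and 2.04% of the 11089 tested genes did so (5.65% in either direction). The enzymes were chosen with earlier results of these data known. Such counts, here and for the difference between the lines, are therefore not independent evidence. MTHFD2 rose by 0.92 on the log2 scale (SE 0.07, interval 0.77 to 1.07, adjusted p = 4.22e-05, edgeR), from 77.2 ± 2.35 to 146 ± 3.28 CPM. ASNS rose by 0.91 (SE 0.07, interval 0.76 to 1.07, adjusted p = 5.46e-05, edgeR), from 147 ± 0.633 to 278 ± 16.4 CPM. These changes ranked 199th and 202nd by size of all genes tested. PYCR1 rose by 0.52 (SE 0.07, interval 0.37 to 0.67, adjusted p = 0.00189, edgeR), from 87.2 ± 3.54 to 125 ± 1.48 CPM, and ranked 810th. ALDH18A1 was at 0.05 (SE 0.06, interval -0.09 to 0.19, adjusted p = 0.671, edgeR), and at -0.03 when TPM was tested with limma, so the data give it no direction. The median of the 4 enzymes was 0.72, against 0.00 for all genes tested. Without replicate 1 at 0 mM, the library that stood apart, the log2 fold changes were 0.90 for MTHFD2, 0.87 for ASNS, 0.51 for PYCR1 and 0.05 for ALDH18A1, with adjusted p-values of 4.51e-10, 1.33e-10, 2.15e-06 and 0.504 (edgeR).

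**Figure D2:**
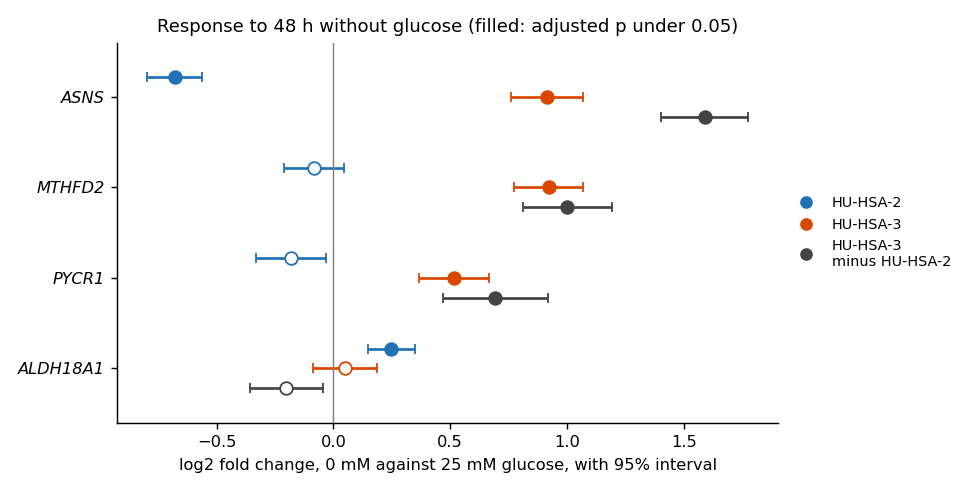
Log2 fold change at 0 mM against 25 mM glucose for each enzyme, with its 95% interval, in either line, and the difference between the responses (HU-HSA-3 minus HU-HSA-2); filled points had an adjusted p-value under 0.05. The intervals of the 2 lines do not meet for ASNS (-0.68 and 0.91), MTHFD2 (-0.08 and 0.92) or PYCR1 (-0.18 and 0.52), and they overlap for ALDH18A1 (0.25 and 0.05).

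The difference between the responses was tested directly in a fit of all 12 libraries. It passed for 3 of the 4 enzymes, all with a higher response in HU-HSA-3, where 2.43% of the 12233 tested genes passed in that direction, 2.31% in the other and 4.73% in either. The difference was 1.59 for ASNS (SE 0.09, interval 1.40 to 1.78, adjusted p = 5.37e-09, edgeR), 1.002 for MTHFD2 (SE 0.09, interval 0.81 to 1.19, adjusted p = 2.08e-06) and 0.69 for PYCR1 (SE 0.11, interval 0.47 to 0.92, adjusted p = 0.000627). ALDH18A1 had a difference of -0.20 (SE 0.07, interval -0.36 to -0.04, adjusted p = 0.146, edgeR), which did not pass although the gene passed in HU-HSA-2 alone. The median of the 4 enzymes was 0.85, against 0.01 for all genes tested. Without replicate 1 of HU-HSA-3 at 0 mM the differences were 1.54, 0.98, 0.68 and -0.20 for ASNS, MTHFD2, PYCR1 and ALDH18A1, and the adjusted p of ALDH18A1 was 0.0660 (edgeR).

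Other genes of the same stress response in the primer list also rose in HU-HSA-3. These are ATF4 itself, DDIT3, which encodes a transcription factor linked to cell death under stress, CHAC1, which degrades glutathione, SESN2, which restrains mTORC1 signalling, and SLC7A11, the cystine importer. In HU-HSA-3 all 5 passed as higher, where 3.61% of tested genes did so. Their log2 fold changes ran from 1.13 to 4.41 with a median of 2.91, each larger than that of any of the 4 enzymes. In the library that stood apart, replicate 1 at 0 mM, SLC7A11 was at 19.3 TPM against 41.8 and 36.1 TPM in the other libraries of its group, and SESN2 at 13.4 against 21.3 and 20.0 TPM. Without it all 5 still passed as higher, from 1.07 to 4.40 with a median of 2.87, and SLC7A11 was at 3.52 in place of 3.29. In HU-HSA-2, 1 passed as higher (DDIT3, 0.45) and 2 as lower (ATF4, -0.22, and CHAC1, -0.44), where 7.45% and 5.70% of tested genes did so. The median of the 5 genes there was -0.22 (-0.06 without 0 mM replicate 3). CHAC1 no longer passed in HU-HSA-2 without 25 mM replicate 2 (-0.39, adjusted p = 0.0684, edgeR). Those genes come from the primer list of a study of these same lines and were chosen with earlier results known. The list is therefore not independent evidence of its direction. Among 6 reference genes of RT-qPCR, 1 passed in HU-HSA-2 (B2M, 0.25) and none in HU-HSA-3 (median 0.09, with B2M at 0.51 and an adjusted p of 0.0846, edgeR). Without replicate 1 of HU-HSA-3 at 0 mM, B2M passed there too, at 0.31 (adjusted p = 0.0124, edgeR), and the median was 0.08.

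The lines were then compared at the same glucose concentration. The deposited tables hold each line separately, and their counts carry no normalization, so they were joined. A difference in how the tables were made and one between the lines cannot be told apart. With glucose, all 4 enzymes passed, 1 as higher and 3 as lower in HU-HSA-3, where 74.3% of the 12233 tested genes passed in either direction (36.1% higher, 38.2% lower), so that passing alone does not set the enzymes apart. PYCR1 was 2.34-fold lower in HU-HSA-3, at -1.22 on the log2 scale (SE 0.08, adjusted p = 2.88e-10, edgeR), and it ranked 2852nd by size. ALDH18A1 was 1.94-fold higher in HU-HSA-3, at 0.96 (SE 0.05, adjusted p = 5.80e-11, edgeR). MTHFD2 was at -0.49 (SE 0.06, adjusted p = 3.15e-06, edgeR) and ASNS at -0.34 (SE 0.06, adjusted p = 0.000118, edgeR), both lower in HU-HSA-3. The 3 libraries of one line did not overlap those of the other for any of the 4, and the median was -0.42, against -0.03 for all genes tested.

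Without glucose, all 4 passed again, 3 as higher and 1 as lower in HU-HSA-3, where 73.2% of tested genes did (36.1% higher, 37.1% lower). ASNS was 2.38-fold higher in HU-HSA-3 (log2 fold change 1.25, SE 0.06, adjusted p = 1.68e-11, edgeR) and MTHFD2 1.42-fold higher (0.51, SE 0.06, adjusted p = 1.80e-06, edgeR), so that both had the opposite sign to that with glucose. ALDH18A1 stayed higher in HU-HSA-3 (0.76, SE 0.05, adjusted p = 1.15e-09, edgeR) and PYCR1 stayed lower (-0.53, SE 0.07, adjusted p = 7.19e-06, edgeR). The median was 0.63, against -0.01 for all genes tested, and again no libraries of the lines overlapped for any of the 4. Without replicate 1 of HU-HSA-3 at 0 mM the values were 1.20 for ASNS, 0.49 for MTHFD2, 0.76 for ALDH18A1 and -0.54 for PYCR1.

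**Figure D3:**
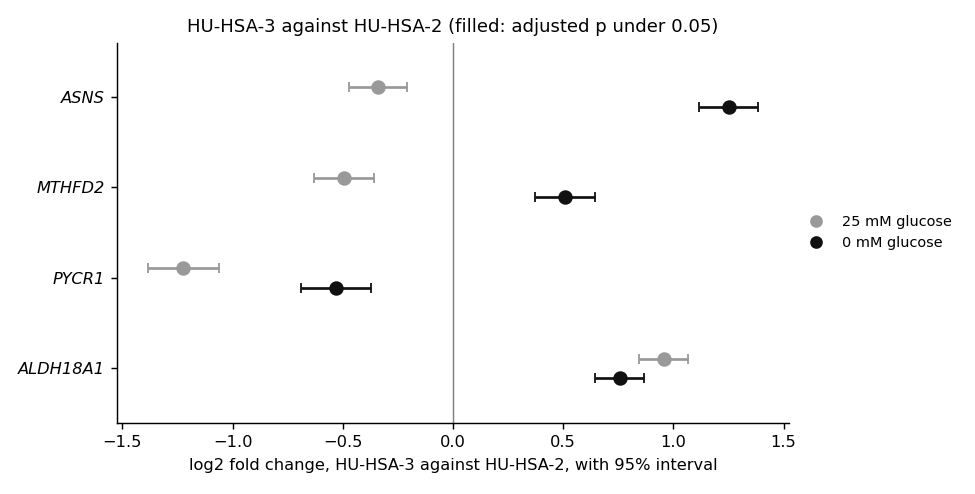
Log2 fold change of HU-HSA-3 against HU-HSA-2 for each enzyme with its 95% interval, at 25 mM glucose (grey) and at 0 mM glucose (black), all with an adjusted p-value under 0.05. ASNS (-0.34 and 1.25) and MTHFD2 (-0.49 and 0.51) changed sign with glucose, while ALDH18A1 (0.96 and 0.76) and PYCR1 (-1.22 and -0.53) did not.

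The size of the line differences depended on how libraries were scaled. TMM factors were 1.05 to 1.08 for HU-HSA-2 but 0.893 to 0.952 for HU-HSA-3, and testing log2(TPM + 1) with limma, which applies no TMM factors, moved the median of all genes by -0.16 with glucose and -0.22 without. On that scale ASNS with glucose was at -0.52 in place of -0.34, MTHFD2 without glucose at 0.27 in place of 0.51 and ALDH18A1 without glucose at 0.49 in place of 0.76, with the same signs. Taken relative to the median of all genes, ASNS was at -0.31 by edgeR and -0.36 by limma, MTHFD2 at 0.52 and 0.47, and ALDH18A1 at 0.77 and 0.70.

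Whether the enzymes moved together was measured by the ratio of TPM of 2 enzymes within a library, which no library scaling can change. For the 6 pairs, 0 mM was compared with 25 mM glucose in each line and the lines at each glucose concentration, 24 exact two-sided permutation tests of 3 against 3 libraries. This design cannot give a p below 0.1, before or after adjustment over the 24 tests (the smallest adjusted value here was 0.109), so no ratio could pass 0.05 and the overlap of libraries is given instead.

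ASNS and MTHFD2 kept the same ratio in HU-HSA-3, at 1.44 ± 0.0445 with glucose and 1.44 ± 0.0601 without (SD, n = 3 each, exact permutation p = 1), and the libraries overlapped. Without replicate 1 at 0 mM its log2 change there was -0.033. In HU-HSA-2 the same ratio went from 1.31 ± 0.0781 to 0.865 ± 0.0318 with no overlap (exact permutation p = 0.1), so that ASNS was above MTHFD2 in each library with glucose and below it in each library without. MTHFD2 and PYCR1 overlapped in their ratio in HU-HSA-2 (0.432 ± 0.0457 with and 0.465 ± 0.0459 without glucose, exact permutation p = 0.5). In HU-HSA-3 that ratio went from 0.721 ± 0.0446 to 0.967 ± 0.0335 with no overlap. In either line, 5 of the 6 pairs had ratios without overlap between glucose concentrations, and the pair that overlapped was a different one in each line.

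The enzymes of proline synthesis stood in opposite proportion in the 2 lines. PYCR1 was at 2.77 ± 0.121 times the TPM of ALDH18A1 in HU-HSA-2 with glucose and at 2.05 ± 0.217 times without, but at 0.617 ± 0.0240 and 0.836 ± 0.0151 times in HU-HSA-3 (SD, n = 3 each). With glucose this ratio was 4.49-fold lower in HU-HSA-3, the largest line difference of the 6 ratios, and without glucose it was 2.44-fold lower. Loss of glucose lowered the ratio in HU-HSA-2, by 0.44 on the log2 scale, and raised it by 0.44 in HU-HSA-3, in each case without overlap (exact permutation p = 0.1). Between the lines, none of the 6 ratios overlapped at either glucose concentration, with differences from 0.14 to 2.17 on the log2 scale with glucose and from 0.23 to 1.79 without. Since 74.3% of tested genes differed between the lines with glucose and 73.2% without (edgeR), this lack of overlap does not set the enzymes apart.

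**Figure D4:**
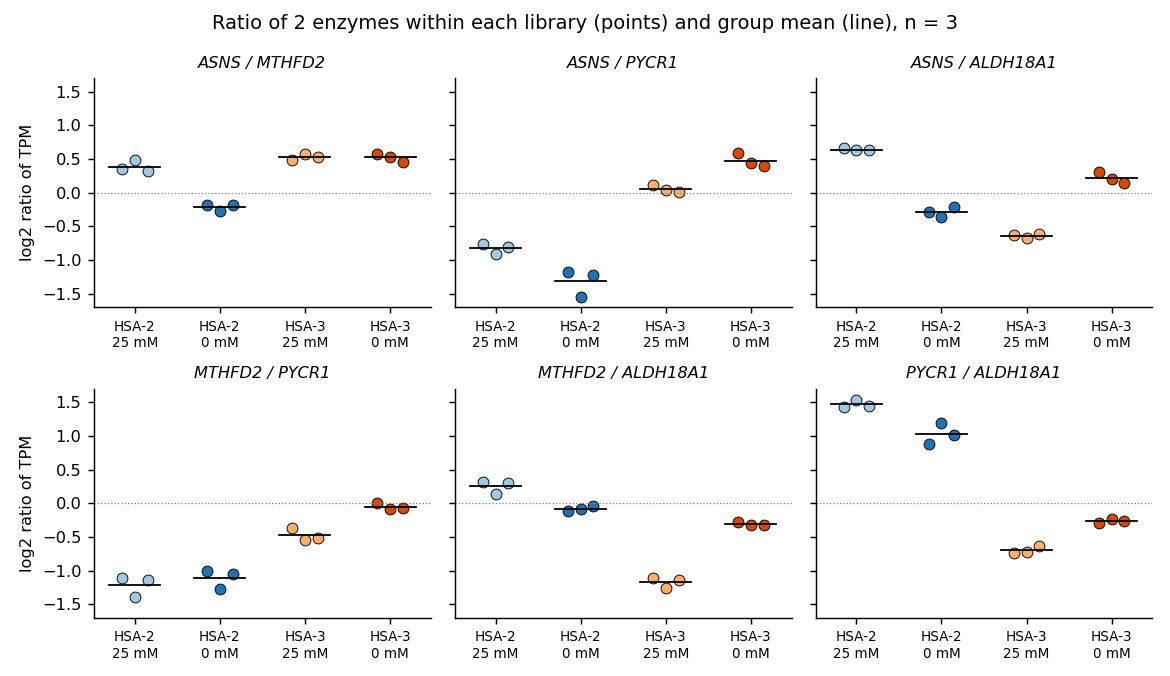
Log2 ratio of TPM of 2 enzymes within each library, by line and glucose, with points for libraries, lines for group means (n = 3) and a dotted line at equal TPM. The groups of HU-HSA-3 overlap for ASNS / MTHFD2 (means 0.53 and 0.52) and those of HU-HSA-2 for MTHFD2 / PYCR1 (-1.22 and -1.11), while PYCR1 / ALDH18A1 lies above 0 in every HU-HSA-2 library and below 0 in every HU-HSA-3 library.

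Among libraries of one group the enzymes did not share one order. PYCR1 was highest in replicate 2 of HU-HSA-2 at both glucose concentrations, by 0.11 and 0.19 on the log2 TPM scale above the group mean at 25 and 0 mM, while the other 3 enzymes deviated by -0.07 to 0.04 in these libraries. In HU-HSA-3 without glucose, replicate 1 was the lowest library by TPM for each of the 4 enzymes, by 0.01 for ASNS and 0.12 for PYCR1 below the group mean, but the highest by CPM for ASNS, MTHFD2 and PYCR1. That library also had the lowest TMM factor, 0.893. The ASNS libraries of this group were 161, 163 and 161 TPM but 295, 276 and 262 CPM, so that the spread of ASNS was 0.857% of its mean in TPM and 16.4 CPM around 278 CPM.

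**Figure D5:**
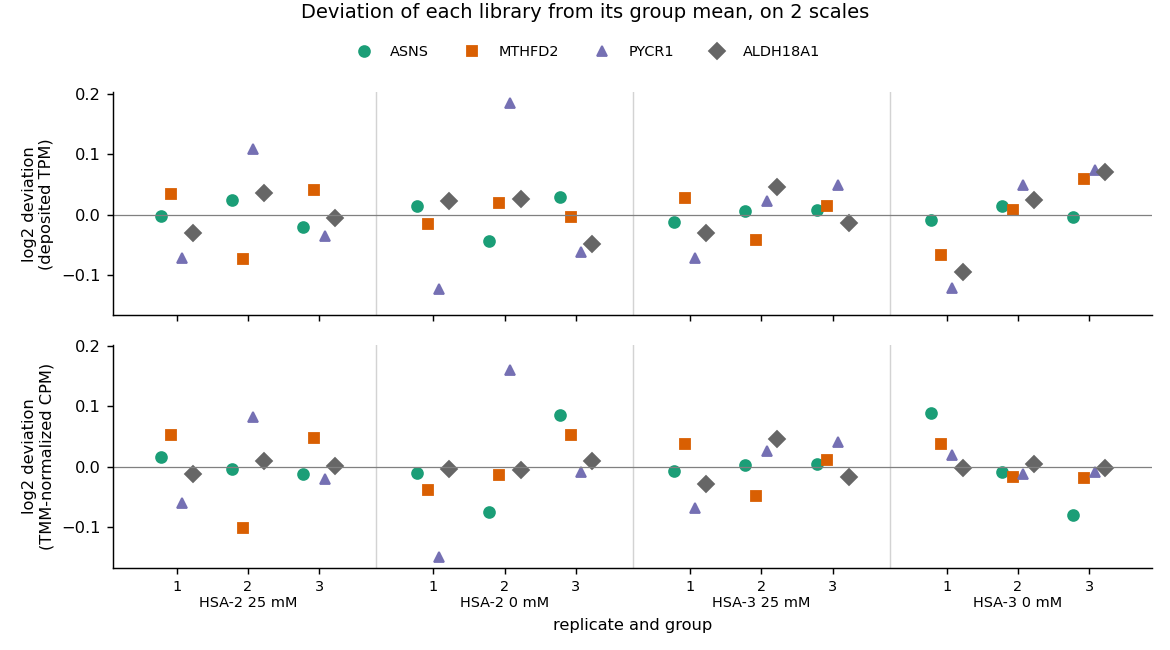
Deviation of each library from its group mean on the log2 scale for the 4 enzymes, in deposited TPM (upper panel) and in TMM-normalised CPM (lower panel), by group and replicate. PYCR1 in replicate 2 of HU-HSA-2 lies high on both scales (0.11 and 0.19 in TPM), whereas replicate 1 of HU-HSA-3 at 0 mM is low in TPM and, for ASNS, high in CPM (0.09).

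The genes most like each enzyme were read from Pearson's r of log2 CPM over the 12 libraries, as a description. The libraries fall into 4 groups and share their scaling factors, so r follows mainly the group means. Symbols were at hand for only 18 genes of the table, all from the primer list and chosen by the study, so a named gene among the closest does not stand out from the unnamed ones. For ASNS, 11 of 12232 other genes reached an r of 0.9, and ATF4, 1 of those 18, was 8th among the 10 closest (r = 0.91). The gene closest to ASNS was ENSCAFG00000030875 (r = 0.98), at 25 and 0 mM with 82.3 ± 11.2 and 49.4 ± 2.96 TPM for HU-HSA-2, against 53.3 ± 2.74 and 101 ± 1.58 TPM for HU-HSA-3 (SD, n = 3 each). For MTHFD2, 27 genes reached an r of 0.9, and CHAC1 (r = 0.95) and SLC7A11 (r = 0.94) were among the 10 closest. PYCR1 and ALDH18A1, which differed mainly between the lines, had 1035 and 2218 such genes, and none of the 10 closest was among the 18 genes with a symbol.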

How the data were processed

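mRNA was sequenced from 12 libraries (NEBNext Ultra II Directional kit). The authors mapped reads to CanFam3.1 with STAR and deposited unnormalized RSEM expected counts, and TPM scaled by gene length and library total, in 1 table per line and unit. The submitters' processing notes name edgeR 3.42.0. STAR and RSEM versions, the annotation release and the strand setting were not given in the sources used here. Columns were assigned to samples by name. Of the expected counts, 97.7% equalled their rounded value, including all 48 values of the 4 enzymes. No 2 of the 12 replicate pairs held identical values (chi-square over degrees of freedom 2.52 to 21.2).

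Expected counts were rounded and tested in R 4.3.3 with edgeR 4.0.16 (filterByExpr, TMM, quasi-likelihood test, Benjamini-Hochberg adjustment, threshold 0.05). Responses were fitted on the 6 libraries of a line, and the other contrasts on all 12. The SE was the unshrunken log2 fold change divided by the square root of F, and a prior count of 2 was set for log2 CPM. The edgeR test of each contrast was checked on simulated counts, and this check did not cover the other steps. Alternatives were DESeq2 1.42.0, limma 3.58.1 on log2(TPM + 1) and log2(TPM + 0.1), other normalizations and filters, a replicate block and leaving out libraries, and the removal of a length trend was added after seeing the data. Named genes were the 4 enzymes, the other genes of the primer list that had been matched, and the genes closest by r that had a symbol, with at most 2 further identifiers. These members and lists were chosen with earlier results of these data known. No identifier matched the reference gene table (0 matches), so other genes of these pathways, coordinates and sequences were not analysed here. One result is not reported here.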

Additional observations from a re-analysis of the deposited data

Results flagged for a closer look

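The response to glucose loss differed between the lines for 3 of the 4 enzymes by the test of the difference itself in all 12 libraries (edgeR, quasi-likelihood, adjusted by Benjamini-Hochberg). The response in HU-HSA-3 minus that in HU-HSA-2 was 1.59 for ASNS (adjusted p = 5.37e-09), 1.002 for MTHFD2 (adjusted p = 2.08e-06) and 0.69 for PYCR1 (adjusted p = 0.000627) on the log2 scale. ASNS was lower in 3 of 3 libraries of HU-HSA-2 and higher in 3 of 3 of HU-HSA-3 than in every library of that line with glucose. With 3 libraries per group, no library was tested as an outlier.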

How the results depend on the processing

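Of 388 values of the 4 enzymes under alternative settings, 384 kept their direction and their side of the threshold. For the lines compared at one glucose concentration, some settings left out a library of the other concentration. Such a library enters only through filtering, scaling and the shared spread, so these settings could hardly move the value. The exceptions were PYCR1 in HU-HSA-2, which passed without the filter on low counts (-0.18, adjusted p = 0.0263), and over the libraries left out in turn lay between -0.26 and -0.11 (adjusted p 0.00509 to 0.339, edgeR), and ALDH18A1 in HU-HSA-3, which reversed to -0.031 and -0.032 with limma on log2(TPM + 1) and log2(TPM + 0.1), not past the threshold in any setting. The causes were not tested. Of 168 ratio values, 2 reversed, both for ASNS/MTHFD2 in HU-HSA-3, where leaving out a library gave a log2 change from -0.033 to 0.027 (0.019 without 25 mM replicate 2, 0.027 without 0 mM replicate 3). Rescaling TPM by the TMM factors moved 15 of the 16 levels by more than 1 SD between libraries. In HU-HSA-2 at 25 and 0 mM they became 122 and 75.9 TPM for ASNS, 93.1 and 87.7 for MTHFD2, 217 and 189.9 for PYCR1 (the latter within 1 SD), and 78.0 and 92.6 for ALDH18A1. In HU-HSA-3 they became 96.2 and 177 for ASNS, 66.7 and 123 for MTHFD2, 92.7 and 127 for PYCR1, and 150.3 and 152 for ALDH18A1.

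Numbers of genes past the threshold over the whole table moved more than the enzymes did. In HU-HSA-2 (1583) they were 870 and 845 with limma at the 2 pseudocounts, and 920 and 907 without replicates 2 and 3 at 25 mM. In HU-HSA-3 (626) they were 384 and 366 with limma, 1153 with all 12 libraries in the fit, 1039 with the length trend removed, 2027 and 319 without replicates 1 and 2 at 0 mM, and 236, 256 and 231 without replicates 1, 2 and 3 at 25 mM. For the difference between the lines (579) they ran from 370 with limma on log2(TPM + 0.1) to 826 without the filter on low counts, and from 386 to 852 with a library left out (without HU-HSA-2 replicate 3 at 25 mM and HU-HSA-3 replicate 1 at 0 mM). The replicate numbers did not pair the libraries, since the deviations of same-numbered libraries correlated between -0.05 and 0.11 across genes. With a replicate block, 1452, 713, 502, 9073 and 8925 genes passed for HU-HSA-2, for HU-HSA-3, for the difference, and between the lines with and without glucose, and the 20 values of the enzymes kept their calls. Having 3 libraries per group limits every estimate. Counting alone gives 1.59% to 3.64% per value, beside coefficients of variation between libraries of 0.758% to 11.6% in TPM.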
